A study of Mus musculus with 12 samples.

Results

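The transcripts of the ER translocon and its associated proteins were followed in isolated extensor digitorum longus (EDL) myofibers of young and aged mice. The 9 genes were taken by name from the 55367 distinct gene symbols listed for each sample. They were the Sec61 channel genes *Sec61a1*, *Sec61b* and *Sec61g*, the genes of its partners *Sec62* and *Sec63*, and the translocon-associated protein (TRAP) complex genes *Ssr1*, *Ssr2*, *Ssr3* and *Ssr4*. All 9 were detected in all 12 samples and passed the filter on low values. The samples were Young (n = 4), fibers of 3–4-month-old mice, and Fluo-4 normal (n = 4) and Fluo-4 abnormal (n = 4), both from 26–28-month-old mice. The strain was C57BL/6 J, and the labels give no sex for the sequenced animals. The paper describes the abnormal staining in aged males and reports hardly any such fibers in aged females. By the methods the aged mice came from a research centre's own supply and other mice from a vendor, so age and source cannot be told apart in comparisons with Young. Fibers were released from the muscle with collagenase and stained with Fluo-4 AM, a dye that fluoresces when it binds calcium, and the aged fibers were sorted by eye under a fluorescence stereomicroscope into those with a normal and those with an abnormal signal. How many mice or fibers stood behind each sample is not stated, so the tests measure the spread between these samples, which may in part be technical. Levels were TPM, a unit that corrects for depth and transcript length.

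Most secreted and membrane proteins enter the endoplasmic reticulum through the Sec61 channel. The channel is a heterotrimer of a pore-forming alpha subunit and the small beta and gamma subunits. Sec62 and Sec63 are membrane proteins that help the channel open and admit precursors that arrive after translation, and Sec63 carries a J-domain that recruits the luminal chaperone BiP. The TRAP complex of alpha, beta, gamma and delta subunits sits beside the channel on the ribosome and helps weakly acting signal sequences to initiate translocation. In muscle, the sarcoplasmic reticulum is a specialised form of this membrane system, and the channel is also known as a site of calcium leak from the ER lumen.

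The gene models of GENCODE vM39 on GRCm39 placed the 9 genes at separate loci. The Sec61 genes lay at chr6:88480561-88495899 on the minus strand (*Sec61a1*, 12 exons), chr4:47474614-47483864 on the plus strand (*Sec61b*, 4 exons) and chr11:16450320-16458507 on the minus strand (*Sec61g*, 4 exons). *Sec62* lay at chr3:30847022-30876314 and *Sec63* at chr10:42637461-42720218, both on the plus strand. Of the TRAP genes, *Ssr1* was at chr13:38149556-38178224 and *Ssr3* at chr3:65287076-65300044, both on the minus strand, and *Ssr2* was at chr3:88483056-88497417 and *Ssr4* at chrX:72830304-72836970, both on the plus strand. Untranslated sequence made up 55.0% to 90.8% of the canonical transcripts, with the lowest share in *Sec61a1* and the highest in *Ssr1*. Exons of 4 members overlapped those of non-coding genes on the opposite strand (*Sec61a1* with *Gm44170* by 549 bp, *Sec62* with *4933429H19Rik* by 511 bp, *Ssr1* with *Gm60095* by 80 bp, and *Ssr2* with *Gm66709* by 1327 bp and *Rtraf-ps* by 730 bp). *Sec61b* shared 281 to 303 bp with 3 processed pseudogenes at 95.7% to 97.7% identity.

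Promoter sequence from RefSeq (GRCm38.p6) was held for 7 of the 9 genes, and the entries of *Sec61a1* and *Ssr2* were missing. The 250 bases before the start site are shown for *Ssr3* and *Ssr1*, which were called higher in Fluo-4 abnormal fibers, and for *Ssr4*, a member of the same complex that was not. Capitals mark CCAAT and CCACG on either strand, the short parts that make up the ER stress response element. The *Ssr3* stretch is chr3:65392554-65392803 on the minus strand, the *Ssr1* stretch chr13:37994209-37994458 on the minus strand and the *Ssr4* stretch chrX:73786773-73787022 on the plus strand, each read 5′ to 3′.
Ssr3: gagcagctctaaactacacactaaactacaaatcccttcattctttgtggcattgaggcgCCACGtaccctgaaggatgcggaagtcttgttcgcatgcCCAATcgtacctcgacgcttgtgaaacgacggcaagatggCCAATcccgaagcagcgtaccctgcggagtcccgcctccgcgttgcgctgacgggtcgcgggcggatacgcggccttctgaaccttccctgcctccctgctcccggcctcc
Ssr1: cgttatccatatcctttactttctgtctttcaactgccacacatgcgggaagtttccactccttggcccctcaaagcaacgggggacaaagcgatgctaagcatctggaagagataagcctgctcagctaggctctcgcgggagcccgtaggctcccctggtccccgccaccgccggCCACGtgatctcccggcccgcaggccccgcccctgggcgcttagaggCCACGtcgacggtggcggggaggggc
Ssr4: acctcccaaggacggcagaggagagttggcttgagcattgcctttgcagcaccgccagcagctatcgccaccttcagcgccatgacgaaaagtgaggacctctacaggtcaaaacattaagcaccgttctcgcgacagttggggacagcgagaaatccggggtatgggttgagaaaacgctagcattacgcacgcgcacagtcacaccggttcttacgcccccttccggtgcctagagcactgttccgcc
*Ssr3* held CCAAT in 2 places and CCACG in 1, *Ssr1* held CCACG in 2 places, and the *Ssr4* stretch held neither. These 3 stretches were chosen by their calls, and the other members differed. In the same 250 bases, *Sec63*, also called higher, held both parts, and *Sec61b*, also called higher, held neither. Of those not called, *Sec61g* held CCAAT in 2 places and *Sec62* held neither. In windows of 300 bases that also took in the first 50 bases after the start site, CCAAT was found in 3 of the 7 member promoters against 37.4% of all 32544 promoters, and CCACG in 3 of the 7 against 33.0%. The full ER stress response element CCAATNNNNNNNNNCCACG was in 0 of the 7 and 0.120% of all promoters. The second form ATTGGNCCACG was in 0 of the 7 and 0.0369% of all, and TGACGTG, the core of the unfolded protein response element, was in 0 of the 7 and 2.03% of all. Both strands were searched, and CCAAT and CCACG are parts of both stress response elements. These matches describe letters in the windows and carry no information on binding.

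The order of the levels was similar in the 3 groups, with wide gaps between subunits. In Young fibers *Ssr4* was highest at 123 ± 6.0 TPM (SD, n = 4), followed by *Sec61b* at 109 ± 5.6 TPM, *Ssr3* at 107 ± 5.8 TPM and *Sec61g* at 93.3 ± 5.1 TPM. The values of *Sec61b* and *Ssr3* overlapped between samples, whereas each other gene in the Young order was separated from the next. *Ssr1* (52.3 ± 3.6 TPM) and *Ssr2* (32.2 ± 2.7 TPM) were intermediate. *Sec62* (15.3 ± 2.0 TPM), *Sec63* (8.08 ± 0.77 TPM) and *Sec61a1* (5.50 ± 0.79 TPM) were lowest. In Fluo-4 normal fibers the 4 leading genes overlapped each other between 101 and 111 TPM on average. In Fluo-4 abnormal fibers *Ssr3* stood alone at the top at 194 ± 25 TPM, above *Sec61b* at 131 ± 15 TPM, and *Sec63* and *Sec61a1* overlapped at the bottom. The 9 genes together made up 545 ± 15 TPM in Young, 534 ± 38 TPM in Fluo-4 normal and 718 ± 53 TPM in Fluo-4 abnormal fibers.

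**Figure D1:**
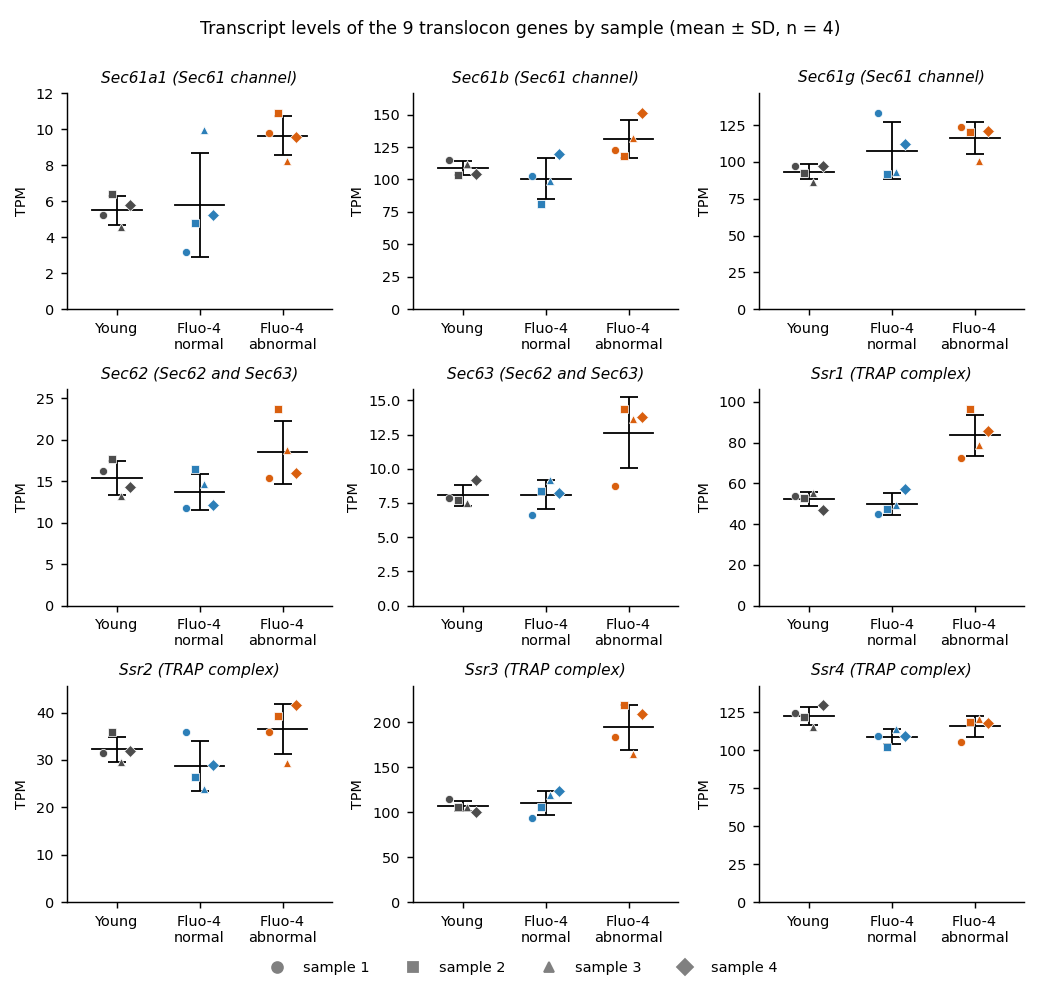
Level of each translocon gene in TPM (y axis, from 0) in the 4 samples of each group (x axis); symbols give the sample number, and black lines the mean ± SD. For Ssr1 and Ssr3 all 4 Fluo-4 abnormal samples lie above all other samples, whereas for Ssr4 they lie within the range of the Young and Fluo-4 normal samples together.

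The labels were checked against cell markers. The 10 myofiber genes summed to 130440 to 132782 TPM in Young, 115890 to 134905 TPM in Fluo-4 normal and 136042 to 155843 TPM in Fluo-4 abnormal samples, and the 3 adipocyte markers were listed at 0 in every sample. The 6 fibroblast markers summed to 19.4 to 38.0 TPM, 25.3 to 82.4 TPM and 13.6 to 63.8 TPM in the same order. The 7 immune markers summed to 1.88 to 3.11 TPM, 6.04 to 15.7 TPM and 9.78 to 16.6 TPM, so they were lowest in Young samples, with *Ptprc* and *Adgre1* at 0 in all Young samples and *Adgre1* at 0 in all Fluo-4 normal samples. Of the immune markers tested, only *Cd3e* was called between Fluo-4 abnormal (2.10 to 4.86 TPM) and Fluo-4 normal samples (0.61 to 0.85 TPM). Its log2 difference was 1.20 (limma adjusted p = 0.0029). The others were not called, with log2 differences of 0.54 for *Cd68*, 0.19 for *Lyz2*, 0.07 for *Ptprc*, -0.07 for *Jchain* and -0.16 for *Csf1r*. *Ptprc* was at 0.26 TPM at most in Fluo-4 abnormal samples. The myofiber genes *Des* and *Myh4* were also called higher in Fluo-4 abnormal samples. *Myh1* (log2 difference -1.81, limma adjusted p = 0.087) and *Myh2* (-0.37, limma adjusted p = 0.73) were lower without a call. The rest of the myofiber list had positive differences without a call. In the order Young, Fluo-4 normal and Fluo-4 abnormal, the 5 erythroid markers summed to 33.1 to 121 TPM, 119 to 482 TPM and 44.4 to 236 TPM, the 4 Schwann markers to 0.77 to 1.81 TPM, 1.42 to 6.32 TPM and 3.57 to 7.45 TPM, and the 5 endothelial markers to 2.58 to 6.37 TPM, 4.44 to 13.3 TPM and 1.84 to 7.21 TPM. The 4 smooth muscle markers summed to 0.78 to 62.0 TPM, 1.09 to 4.79 TPM and 1.09 to 6.12 TPM, and the 4 satellite cell markers to 1.56 TPM at most. The part of these cells in the translocon values was not tested. Fewer cells of a type and less RNA per cell cannot be told apart in these samples.

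The first comparison asked which translocon transcripts differed between aged fibers with an abnormal and with a normal Fluo-4 signal. The paper reports that the intense staining coincided with a marker of the sarcoplasmic reticulum. It describes structures like tubular aggregates, derived from that membrane system, in these fibers. In the normal regions of the fibers it found no difference in Fluo-4 intensity. Its gene ontology analysis of the RNA-seq data reports terms for ER protein processing and ER protein localization as raised in Fluo-4 abnormal fibers. The values here come from the same samples and are not separate evidence for that result. *Ssr1*, *Ssr3*, *Sec61b* and *Sec63* rose in Fluo-4 abnormal fibers, and the other 5 genes did not pass the threshold. The call was made with limma on log2(TPM + 1) at a Benjamini-Hochberg adjusted p under 0.05, over 14428 genes tested. Of all genes tested, 7.36% were called higher, against 4 of the 9 translocon genes. The translocon genes are well expressed, and among the 6348 genes that reached 5 TPM in a group the share was 22.4%, against 5 of the 9 (*Sec61a1* in addition). Values of all 4 Fluo-4 abnormal samples lay above all 4 Fluo-4 normal samples for 11.5% of all genes and for 2 of the 9, *Ssr1* and *Ssr3*.

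*Ssr3* encodes the gamma subunit of TRAP. It was at 93.6, 106, 119 and 123 TPM in Fluo-4 normal samples 1 to 4, and at 184, 219, 165 and 210 TPM in Fluo-4 abnormal samples 1 to 4. The groups did not overlap, and the ratio of the means was 1.76. The log2 difference was 0.81 ± 0.10 (SE, limma adjusted p = 0.00073). *Ssr1* encodes the alpha subunit of TRAP. Its values were 44.7, 47.5, 49.5 and 57.2 TPM in the Fluo-4 normal and 72.6, 96.5, 78.9 and 85.9 TPM in the Fluo-4 abnormal samples, again without overlap. The ratio of the means was 1.68 and the log2 difference 0.73 ± 0.10 (SE, limma adjusted p = 0.00099). By p, *Ssr3* ranked 39 and *Ssr1* 58 among the genes tested.

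The other TRAP subunits did not pass the threshold. *Ssr4*, the delta subunit, was at 110, 102, 114 and 110 TPM in the Fluo-4 normal and 106, 119, 121 and 118 TPM in the Fluo-4 abnormal samples, which overlapped. Its log2 difference was 0.09, with a 95% interval from -0.05 to 0.22 (limma, adjusted p = 0.43). *Ssr2*, the beta subunit, ranged from 23.8 to 35.9 TPM and from 29.4 to 41.5 TPM in the 2 groups, with a log2 difference of 0.34 ± 0.13 (SE, limma adjusted p = 0.12). Exons of *Ssr4* overlap those of *Idh3g* on the opposite strand by 301 bp. *Idh3g*, a subunit of mitochondrial isocitrate dehydrogenase, was at 464 ± 30 TPM in Fluo-4 normal and 361 ± 24 TPM in Fluo-4 abnormal fibers. The library kit does not mark strand, so reads from the overlap cannot be told apart between these genes.

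Of the channel genes, *Sec61b*, the beta subunit, was at 103, 80.9, 98.6 and 120 TPM in the Fluo-4 normal and 123, 118, 132 and 151 TPM in the Fluo-4 abnormal samples. The highest Fluo-4 normal sample overlapped the lowest Fluo-4 abnormal sample. The log2 difference was 0.39 ± 0.11 (SE, limma adjusted p = 0.039). *Sec61a1*, the pore-forming alpha subunit, was at 3.18, 4.80, 9.94 and 5.26 TPM and at 9.82, 10.9, 8.26 and 9.57 TPM, respectively. Its ratio of means was 1.66 and its log2 difference 0.73 ± 0.23 (SE, limma adjusted p = 0.064). Fluo-4 normal sample 3 was the highest of its group, but the check for a sample far from the others did not flag it. Without that sample the log2 difference was 0.99 (limma, adjusted p = 0.0065). Without Fluo-4 normal sample 1 the log2 difference was 0.53 (limma, adjusted p = 0.16). Leaving out any sample other than Fluo-4 normal sample 3 gave no call, with limma adjusted p-values from 0.086 to 0.16. *Sec61g*, the gamma subunit, ranged from 92.0 to 133 TPM and from 100 to 124 TPM, and its log2 difference was 0.13, with a 95% interval from -0.11 to 0.36 (limma, adjusted p = 0.51). The *Sec61g* value is uncertain, since the processed pseudogene *Gm10177* matches its transcript at 99.0% identity over 207 bp and was itself listed at 193 ± 28 TPM in Young, 221 ± 37 TPM in Fluo-4 normal and 249 ± 45 TPM in Fluo-4 abnormal samples. Further sequences match it too. The longest match was to the protein-coding gene *Raph1* (96.5% over 430 bp), at 1.6 ± 0.7 TPM in Fluo-4 normal and 3.5 ± 0.8 TPM in Fluo-4 abnormal samples.

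*Sec63* was at 6.64, 8.39, 9.19 and 8.23 TPM in the Fluo-4 normal and 8.75, 14.4, 13.7 and 13.8 TPM in the Fluo-4 abnormal samples. Fluo-4 abnormal sample 1 lay within the range of the Fluo-4 normal samples, and the other 3 lay above it. The log2 difference was 0.57 ± 0.15 (SE, limma adjusted p = 0.034). *Sec62* ranged from 11.7 to 16.4 TPM and from 15.4 to 23.7 TPM, with a log2 difference of 0.40 ± 0.15 (SE, limma adjusted p = 0.11). Both genes were higher in the Fluo-4 abnormal sample of each of the 4 same-numbered pairs.

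The size of these differences depended on the scaling. The median log2 difference of all genes tested was 0.10, and that of genes reaching 5 TPM was 0.20, against 0.40 for the 9 translocon genes. Taken relative to the median of the genes reaching 5 TPM, *Ssr3* differed by 0.60, *Ssr1* by 0.53, *Sec61a1* by 0.53, *Sec63* by 0.36, *Sec62* by 0.19, *Sec61b* by 0.18, *Ssr2* by 0.13, *Sec61g* by -0.08 and *Ssr4* by -0.12. With TMM-type factors, which bring the median of all genes to 0.00, the translocon median was 0.18. *Ssr3* (0.58, limma adjusted p = 0.0017) and *Ssr1* (0.51, limma adjusted p = 0.0032) were then the 2 genes called, against 2.13% of all genes. *Sec63* (0.36, limma adjusted p = 0.18) and *Sec61b* (0.16, limma adjusted p = 0.60) were not called, and *Sec61g* and *Ssr4* changed sign to -0.10 and -0.14. Over all genes tested, the split into higher and lower calls was 1062 against 287 as deposited and 307 against 543 with these factors.

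With the replicate number of the aged samples as a block, 7 of the 9 were called higher, against 13% of all genes. *Sec61a1* (limma, adjusted p = 0.048), *Sec62* (adjusted p = 0.023) and *Ssr2* (adjusted p = 0.041) were added, while *Sec61g* (adjusted p = 0.29) and *Ssr4* (adjusted p = 0.36) were again not called. With the block and the share of *Myh4*, the fast IIB myosin, among the *Myh1*, *Myh2*, *Myh4* and *Myh7* transcripts as a covariate, 0 of the 9 were called by limma, 5 of them at an unadjusted p under 0.05, and 22 genes were called in all. In that fit the log2 difference was 0.87 ± 0.15 (SE, limma adjusted p = 0.064) for *Ssr3* and 0.57 ± 0.13 (SE, limma adjusted p = 0.11) for *Ssr1*. The *Myh4* share was 93.7% to 99.2% in Fluo-4 normal and 98.9% to 99.7% in Fluo-4 abnormal samples.

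**Figure D2:**
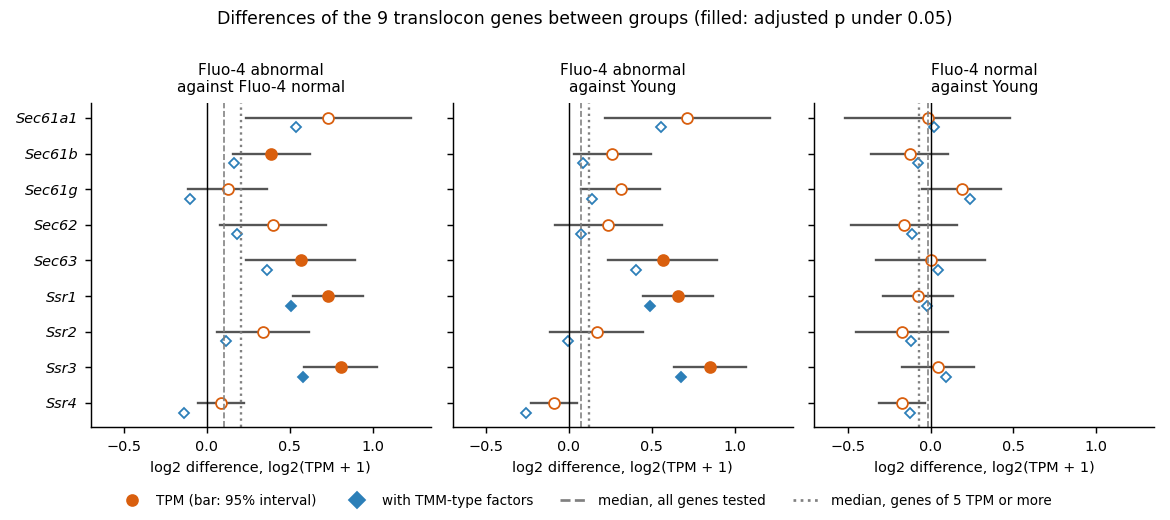
Log2 difference of each translocon gene on the log2(TPM + 1) scale (x axis) in the 3 comparisons, as deposited (circles, with 95% intervals) and with TMM-type factors (diamonds); filled symbols have an adjusted p under 0.05, and grey lines give the medians of other genes. Ssr1 and Ssr3 are filled on both scales in both comparisons with Fluo-4 abnormal fibers, and no symbol is filled for Fluo-4 normal against Young.

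The second comparison set the Fluo-4 abnormal fibers against Young fibers. It shares the Fluo-4 abnormal samples with the first, so its values are given beside those above and do not form separate evidence. *Ssr3*, *Ssr1* and *Sec63* rose, 3 of 9 against 6.09% of all genes tested. Among the genes reaching 5 TPM the share was 15.2%, against 4 of the 9. All 4 Fluo-4 abnormal samples lay above all 4 Young samples for 5 of the 9 (*Sec61a1*, *Sec61b*, *Sec61g*, *Ssr1* and *Ssr3*), against 12.2% of all genes.

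*Ssr3* was at 114, 106, 106 and 100 TPM in Young samples 1 to 4, and the log2 difference was 0.85 ± 0.10 (SE, limma adjusted p = 0.00036). *Ssr1* was at 53.7, 53.0, 55.3 and 47.1 TPM in Young samples, with a log2 difference of 0.66 ± 0.10 (SE, limma adjusted p = 0.0015). *Sec63* was at 7.87, 7.72, 7.52 and 9.21 TPM, and its log2 difference was 0.57 ± 0.15 (SE, limma adjusted p = 0.035). The *Sec63* call held in 11 of 21 alternatives. Leaving out any 1 Young sample lost it (limma adjusted p from 0.056 to 0.089), as did leaving out Fluo-4 abnormal sample 2, 3 or 4 (0.087 to 0.10). It was also lost with TMM-type factors (0.41, adjusted p = 0.099), which left 2 genes called against 3.09% of all genes, *Ssr3* and *Ssr1*. *Sec61a1* had 5.23, 6.41, 4.55 and 5.81 TPM in Young samples, all below the Fluo-4 abnormal values, and a log2 difference of 0.71 ± 0.23 (SE, limma adjusted p = 0.074). *Sec61b* differed by 0.26 (adjusted p = 0.16) and *Sec61g* by 0.31 (adjusted p = 0.10). Both were called with the block, which gave 5 of 9 against 10.2% of all genes. The block covers the aged samples only and takes the spread between their numbers out of this comparison. *Sec62* (0.24) and *Ssr2* (0.17) were not called. *Ssr4* was at 125, 122, 115 and 130 TPM in Young samples and differed by -0.09, with a 95% interval from -0.22 to 0.05 (limma, adjusted p = 0.47). The median of the 9 genes was 0.31, against 0.07 for all genes tested and 0.12 for those reaching 5 TPM.

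The third comparison, Fluo-4 normal against Young, addressed age in fibers without the abnormal signal. None of the 9 genes was called by limma, against 1.15% of all genes called in either direction, and 1 of the 9 had an unadjusted p under 0.05. That gene was *Ssr4*, lower in every Fluo-4 normal sample than in every Young sample, with a log2 difference of -0.17 (95% interval -0.31 to -0.03, limma adjusted p = 0.25). For *Ssr3* the log2 difference was 0.04, with a 95% interval from -0.17 to 0.26, and for *Ssr1* it was -0.07, with an interval from -0.28 to 0.14. The widest interval was that of *Sec61a1*, from -0.51 to 0.48 around -0.02. The median of the 9 genes was -0.07, against -0.02 for all genes tested.

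Ratios between subunits in a sample do not depend on how the sample was scaled, although those to *Ssr4* keep the overlap of that gene with *Idh3g*. *Ssr3* per *Ssr4* was 0.855, 1.04, 1.04 and 1.13 in Fluo-4 normal samples 1 to 4 and 1.74, 1.84, 1.36 and 1.78 in Fluo-4 abnormal samples, whereas the Young samples had 0.916, 0.871, 0.920 and 0.774. The Fluo-4 abnormal ratios lay above all others, 1.65 times the Fluo-4 normal and 1.92 times the Young geometric mean. *Ssr1* per *Ssr4* lay between 0.408 and 0.522 in Fluo-4 normal, 0.363 and 0.479 in Young and 0.654 and 0.812 in Fluo-4 abnormal samples, a ratio of 1.58 to the Fluo-4 normal and of 1.69 to the Young geometric mean. In these 4 comparisons the two-sided exact permutation test gave p = 0.0286, the smallest that 70 arrangements of 4 against 4 samples allow. The test took the samples as independent and did not use the shared numbers of the aged samples. Over 18 tests (6 ratios and 3 comparisons) the adjusted p was 0.0857, so 0 ratios passed the adjusted threshold, while 6 had an unadjusted p under 0.05. The other 2 were *Sec61a1* per *Sec61b* in Fluo-4 abnormal against Young (1.47 times) and *Sec61g* per *Sec61b* in Fluo-4 normal against Young (1.25 times), where *Sec61g* carries the uncertainty of its pseudogene. *Ssr2* per *Ssr4* was 1.20 times as high in Fluo-4 abnormal as in Fluo-4 normal samples (exact permutation p = 0.257), and *Sec62* per *Sec63* was 0.871 times as high (exact permutation p = 0.314).

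As a description of the same values, *Ssr3* made up 34.0% ± 1.2 of the summed TPM of the 4 TRAP genes in Young, 37.0% ± 2.7 in Fluo-4 normal and 45.1% ± 2.2 in Fluo-4 abnormal samples (SD, n = 4). The share of *Ssr4* was 39.1% ± 1.9, 36.6% ± 1.8 and 27.1% ± 2.5. The summed TRAP level was 314 ± 8.2 TPM, 298 ± 18 TPM and 430 ± 40 TPM, and that of the 3 channel genes 208 ± 6.8 TPM, 214 ± 30 TPM and 257 ± 18 TPM.

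**Figure D3:**
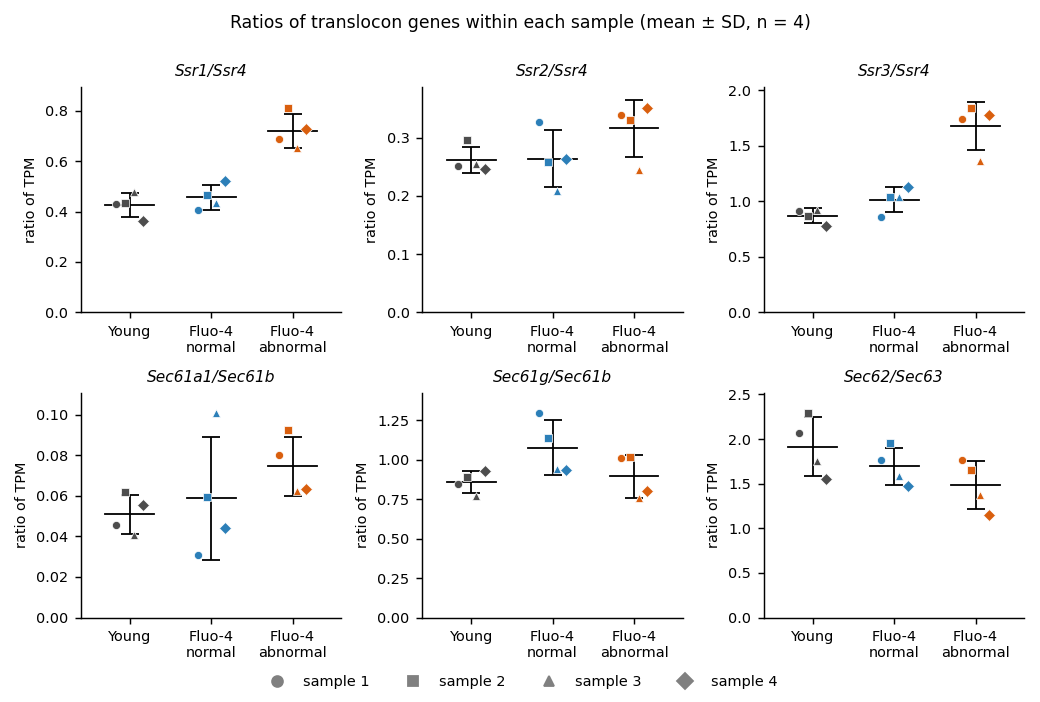
Ratio of TPM of subunit genes within each sample (y axis, from 0) by group (x axis); symbols give the sample number and black lines the mean ± SD. Ssr1 per Ssr4 and Ssr3 per Ssr4 are higher in all 4 Fluo-4 abnormal samples than in any other sample, while Ssr2 per Ssr4 and Sec62 per Sec63 overlap between the groups.

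The alpha subunit of the channel has a paralog, *Sec61a2* (chr2:5874426-5900243, minus strand), whose transcript aligned with that of *Sec61a1* at 77.2% identity over 1462 bp. *Sec61a2* was at 30.1 ± 1.6 TPM in Young, 25.6 ± 1.9 TPM in Fluo-4 normal and 28.4 ± 5.1 TPM in Fluo-4 abnormal fibers, above *Sec61a1* in every sample. It was not called between Fluo-4 abnormal and Fluo-4 normal fibers (log2 difference 0.13 ± 0.11, SE, limma adjusted p = 0.49). *Sec61a1* accounted for 15.4% ± 2.1 of the summed alpha transcripts in Young, 17.8% ± 6.0 in Fluo-4 normal and 25.6% ± 2.9 in Fluo-4 abnormal samples. This share was computed after the values were seen and was not tested. Exons of *Sec61a2* overlap those of *Nudt5* on the opposite strand by 2407 bp, and *Nudt5* was at 0.81 TPM or less in every sample. The sequence shared with *Nudt5* transcripts made up 63.1% of the *Sec61a2* transcript. Since the library kit does not mark strand, reads from it cannot be told apart between these genes. The level of *Sec61a2* and the share of *Sec61a1* carry this uncertainty.

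The 9 genes were set beside 66 other genes that act in protein entry into the ER, in 8 lists, of which 65 were tested. Between Fluo-4 abnormal and Fluo-4 normal fibers 28 of the 65 were called higher and 0 lower (limma, or 30 and 0 with the block), and 62 had a positive difference. The share of all genes called higher was 7.36%, and 13% with the block. Among genes reaching 5 TPM, which were fitted and adjusted on their own, it was 22.4%. The count of list genes in that separate fit is not given here, so 28 of 65 and 22.4% come from different fits. The median of the 65 was 0.29, against 0.40 for the translocon genes, 0.10 for all genes tested and 0.20 for those reaching 5 TPM. With TMM-type factors 6 were called higher and 1 lower, against 2.13% of all genes called higher, and the median was 0.08. Against Young, 16 were called higher and 2 lower, where 6.09% of all genes were called higher (15.2% in the separate fit of genes reaching 5 TPM). Between Fluo-4 normal and Young 0 were called by limma.

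As deposited, each of the 8 lists had at least 1 call between the aged groups, where 7.36% of all genes tested were called higher (22.4% in the separate fit of genes reaching 5 TPM). The signal recognition particle and its receptor, which deliver ribosomes to the channel, had 7 of 10 called higher, among them *Srp54a*, which binds the signal sequence (0.45, adjusted p = 0.0029). This list counts *Srp54a*, *Srp54b* and *Srp54c* as separate genes, and *Srp54a* and *Srp54c* are among the calls. Sequence shared between these genes was not checked, so their values may not be independent. The oligosaccharyltransferase, which glycosylates the entering chain, had 7 of 12, led by *Ddost* (0.57, adjusted p = 0.0025), and the signal peptidase had 3 of 5, led by *Spcs2* (0.49, adjusted p = 0.0059). BiP with its exchange factors and ER J-proteins had 4 of 8. *Hspa5*, the gene of BiP, was at 142 ± 26 TPM in Fluo-4 normal and 231 ± 22 TPM in Fluo-4 abnormal fibers (0.71, adjusted p = 0.0058). Of the machineries for membrane protein insertion, the ER membrane protein complex had 1 of 10 (*Emc3*, 0.29, adjusted p = 0.020), the multipass translocon 1 of 7 (*Wdr83os*, 0.36, adjusted p = 0.0084), and the GET and SND routes 3 of 8, led by *Get4* (0.35, adjusted p = 0.026). Among the channel paralogs and partners 2 of 5 were called, with the smallest p for *Tram2* (0.72, adjusted p = 0.014), whose group means were between 0.22 and 1.06 TPM. These counts depended on the scaling. With TMM-type factors, 2.13% of all genes were called higher, as were 2 genes each of the oligosaccharyltransferase and BiP lists. The signal recognition particle list and the paralogs and partners then had 1 each. The signal peptidase, the multipass translocon and the GET and SND routes had 0 calls, and the ER membrane protein complex had 0 higher and 1 lower. Differences between the lists were not tested.

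**Figure D4:**
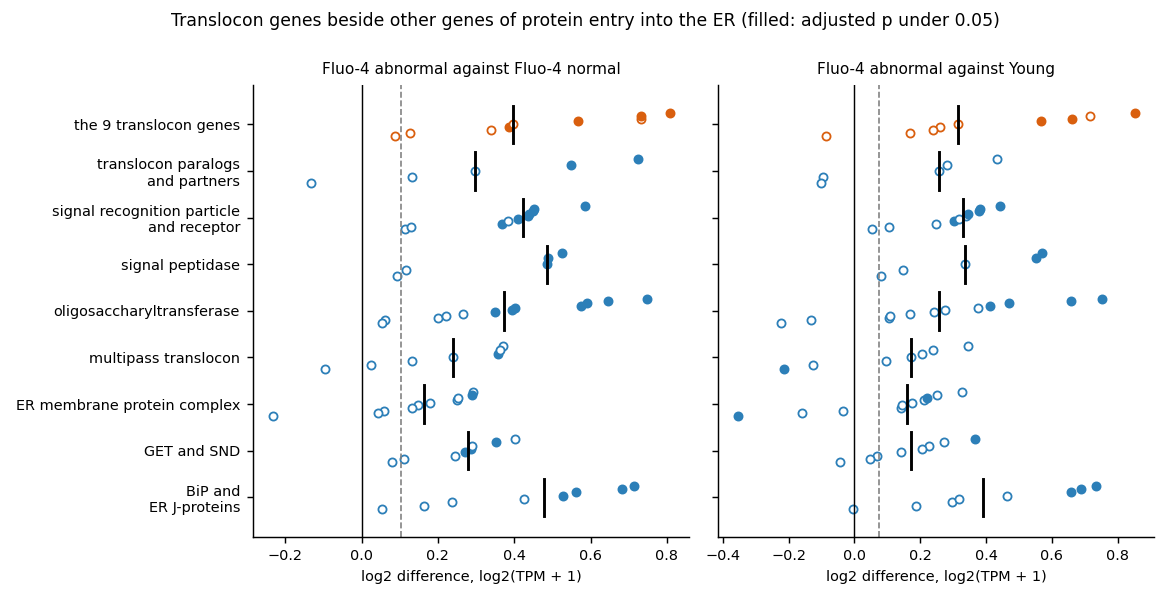
Log2 difference on the log2(TPM + 1) scale (x axis) of each translocon gene (top row) and of each gene in 8 further lists (rows), for Fluo-4 abnormal against Fluo-4 normal (left) and against Young (right); filled points have an adjusted p under 0.05, black bars mark each list's median and the dashed line the median of all genes tested. The translocon median is 0.40 on the left and 0.31 on the right.

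Correlations among the translocon genes over the 12 samples covered a wide range. On the log2(TPM + 1) scale, Pearson's r between *Ssr1* and *Ssr3* was 0.97, that of *Sec63* with *Ssr1* was 0.86, and that of *Ssr3* with *Ssr4* was -0.00. The 36 pairs ranged from -0.27 (*Sec61g* and *Ssr4*) to 0.97, with a median of 0.48. These coefficients include the differences between groups and the scaling that all genes of a sample share, and they are given as a description. The genes most like the mean of the 9 standardised members, among 5985 others of at least 5 TPM, were *Ctxn3* (r = 0.95), *Sdf2l1* (0.94), *Atp6v0a1* (0.94), *Surf4* (0.94) and *Wdr83os* (0.94). For single members the closest gene was *Tmbim1* for *Ssr3* (0.98), *Prpsap1* for *Ssr1* (0.98), *Kars* for *Sec63* (0.97), *Gabarapl2* for *Sec62* (0.96), *Grb10* for *Sec61b* (0.92), *Dnajc3* for *Sec61a1* (0.92), *Elob* for *Sec61g* (0.92), *3110040N11Rik* for *Ssr2* (0.89) and *Pfdn1* for *Ssr4* (0.86).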

How the data were processed

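RNA of isolated EDL myofibers was sequenced in 12 samples, 4 per group. Per the labels and methods, the authors purified RNA with TRIzol, made SMART-Seq v4 libraries from 10 ng of RNA, used DRAGEN 4.3 for alignment to GRCm39, and deposited a table of TPM values for each sample. A table had 55487 lines, and lines that shared a symbol (114 symbols) were summed. The annotation release is not given in the sources used here. Since every sample summed to 1000000 TPM, depth is unknown and intervals from read counts could not be given.

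Protein-coding and mitochondrially-encoded genes with a mean of at least 0.02 TPM in at least 1 group were tested (14428 genes). The 3 groups were fitted together on log2(TPM + 1) in limma 3.58.1 (R 4.3.3), using a mean-variance trend and Benjamini-Hochberg adjustment over all genes tested. The fit was tested on simulated data. Subunit ratios were compared by two-sided exact permutation over 70 arrangements. The labels number the aged samples 1 to 4 in both groups without saying what a number marks. Same-numbered samples deviated together from their group means (r of 0.44, 0.38, 0.43 and 0.30 over 5994 genes), while samples of different number gave -0.36 to 0.23. They were therefore treated as pairs in the replicate block, with Young samples in no block. The pairing comes from this correlation and not from a stated mouse.

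All 9 members are named, with *Sec61a2*, the gene of smallest p between Fluo-4 abnormal and Fluo-4 normal in each pathway list, the 5 genes most like the members' mean and the 1 most like each member. *Gm10177*, *Raph1*, *Idh3g* and *Nudt5* are named for shared or overlapping sequence, and *Srp54b* and *Srp54c* as further *Srp54* genes of their list. The members and lists were chosen with earlier results of these data known. Gene models came from GENCODE vM39, and near-identical transcripts (at least 95% identity over 180 bp) were searched with BLAST 2.17.0. The alternatives changed the scaling (TMM-type factors with trims of 30% and 5%, or the mitochondrially-encoded genes left out), the filter (none, or 5 TPM), the pseudocount (0.1), the genes (all annotated rows), the model (replicate block, 2 groups alone, sample weights, *Myh4* share as a covariate, GC and length trend removed) or the samples (each left out in turn).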

Additional observations from a re-analysis of the deposited data

Results flagged for a closer look

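Among 45 sets of 4 values checked for a sample far from the others, 2 were flagged, where chance flags about 1 in 20. *Sec63* was at 8.75 TPM in Fluo-4 abnormal sample 1, against 13.7 to 14.4 TPM in the other 3 Fluo-4 abnormal samples, and the gap to the nearest was 0.874 of the whole range. *Sec61g* was at 100.4 TPM in Fluo-4 abnormal sample 3, against 120 to 124 TPM in the others, a gap of 0.850 of the range. Without Fluo-4 abnormal sample 1, *Sec63* was called higher than in Fluo-4 normal fibers with a log2 difference of 0.72 (limma, adjusted p = 0.0045).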

How the results depend on the processing

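*Ssr1* and *Ssr3* were called higher in Fluo-4 abnormal than in Fluo-4 normal fibers in 20 of 21 alternatives each, with log2 differences of 0.42 to 0.80 and 0.58 to 0.92 and adjusted p-values from 0.00035 to 0.11 and from 6.5e-05 to 0.064. The call was lost in the fit that held both the block and the *Myh4* share, where the log2 differences were 0.57 for *Ssr1* and 0.87 for *Ssr3* with a larger SE (0.13 and 0.15). Against Young both were called in 21 of 21. Between Fluo-4 abnormal and Fluo-4 normal, the number of the 9 genes called was 4 as reported, 2 with TMM-type factors, with scaling without mitochondrially-encoded genes, with only the groups compared and with the GC and length trend removed, 7 with the replicate block, 0 with the block plus the *Myh4* share, and 2 to 4 on leaving out 1 sample. Against Young it was 3 as reported, 5 with the replicate block, with only the groups compared and with sample quality weights, and 2 to 3 on leaving out 1 sample. Over all genes, the calls between Fluo-4 abnormal and Fluo-4 normal numbered 1349 as reported, 2281 with the block, 850 with TMM-type factors and 22 with the block plus the *Myh4* share. Called higher were 1062 of 14428 genes as reported and 635 of 14496 with scaling without mitochondrially-encoded genes. The count was 567 of 14130 with only the groups compared and 459 of 14428 with the GC and length trend removed. Against Young it was 879 of 14428 as reported, 1073 of 14095 with only the groups compared and 1272 of 14428 with weights. On leaving out 1 sample it ran from 460 to 1157 between the aged groups and from 394 to 889 against Young. The cause of these changes was not tested.

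The calls of *Sec61b* and *Sec63* between the aged groups held in 6 and 9 of 21 alternatives. On leaving out 1 sample, adjusted p-values above the threshold ran from 0.053 to 0.099 for *Sec61b* and from 0.061 to 0.10 for *Sec63*. *Ssr2* was called without Fluo-4 normal sample 1 (0.45, adjusted p = 0.041). The sign changed between the aged groups for *Sec61g* (-0.10 with TMM-type factors, -0.12 with the *Myh4* share, -0.026 with both the block and the share) and for *Ssr4* (-0.14 with TMM-type factors, -0.10 with the GC and length trend removed, with or without the block), and against Young for *Ssr2* (-0.0025 with TMM-type factors). Between Fluo-4 normal and Young, where no member was called in any alternative, signs changed for *Sec61a1* (0.022 with TMM-type factors, 0.0072 without mitochondrially-encoded genes, 0.094 with weights, 0.019 with the GC and length trend removed, with or without the block, and -0.28 to 0.19 on leaving out 1 sample), *Sec63* (-0.10 with the *Myh4* share, -0.055 to 0.083 on leaving out 1 sample), *Ssr1* (0.0086 with the block and the *Myh4* share, 0.022 with the GC and length trend removed, with or without the block), *Ssr3* (-0.010 with the *Myh4* share, -0.011 to 0.12 on leaving out 1 sample) and *Ssr2* per *Ssr4* (0.0013 with a pseudocount of 1, up to 0.11 on leaving out 1 sample). On leaving out 1 sample, signs also changed for *Sec61a1* per *Sec61b* between Fluo-4 normal and Young (0.09 as reported, -0.22 without Fluo-4 normal sample 3 and -0.012 without Young sample 3) and for *Sec61g* per *Sec61b* between Fluo-4 abnormal and Young (0.05 as reported, -0.0068 without Fluo-4 abnormal sample 1 and -0.012 without sample 2). No subunit ratio passed the adjusted threshold with a pseudocount of 1, and the ratios with the block or with 1 sample left out were values with no test. Of the 4 same-numbered pairs, *Ssr1* per *Ssr4*, *Ssr2* per *Ssr4* and *Ssr3* per *Ssr4* were higher in the Fluo-4 abnormal sample in 4. For *Ssr1* and *Ssr3* per *Ssr4* this count follows from the lack of overlap between the groups and adds no evidence. The count was 3 for *Sec61a1* per *Sec61b*, 1 for *Sec62* per *Sec63* and 0 for *Sec61g* per *Sec61b*. Read depth is unknown, so the precision of low values such as *Sec61a1* rests on the spread between samples alone.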
